A study of Mus musculus with 211 samples.

Results

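The 10 genes described here, Fos, Fosb, Jun, Junb, Jund, Atf3, Egr1, Ier2, Zfp36 and Dusp1, are immediate early genes that are often read as a sign of tissue dissociation and cell sorting. They were chosen by name and found in the deposited table of gene counts through their Ensembl identifiers, and all 10 were among its 48709 genes. The study performed scRNA-Seq on GFP+ cells from the cochleae of adult CD1 mice of either sex that carried the Lfng-EGFP transgene, in which a bacterial artificial chromosome with the Lfng locus drives EGFP in supporting cells (SCs). All cells came from mice with this transgene, and the 2 groups differed in age, P60 and P120. Cochleae pooled from several mice were digested with trypsin at body temperature, triturated, sorted for GFP with propidium iodide to leave out dead cells, and captured on the Fluidigm C1, which makes a full-length cDNA library from the polyA RNA of each cell without molecular identifiers. GFP also marks endothelial cells in these mice, and the authors removed such cells before deposit.

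Immediate early genes are transcribed within minutes of a stimulus without new protein synthesis, through factors such as CREB and SRF that already sit at their promoters. FOS and JUN family proteins pair to form AP-1, EGR1 and ATF3 are further transcription factors of the early response, and ZFP36 and DUSP1 shut the response down, the former by degrading AU-rich mRNAs and the latter by dephosphorylating MAP kinases. Enzymatic digestion of tissue at body temperature is known to raise their transcripts in many cell types, and neutrophils and other leukocytes also induce them when activated. No undissociated tissue and no GFP- cells were analysed here, so tissue state and handling cannot be told apart from these levels.

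The data hold 211 cells, 48.3% of them from 8 captures at P60 and 51.7% from 4 captures at P120. A capture is 1 loading of the chip, and captures, not cells, were taken as replicates. The median cell had 736455 reads on genes, the shallowest 41 and the deepest 5361476, and 164 cells had at least 50000. Capture 10c stood apart with 119240 reads over 13 cells, against 3322127 to 44268475 in the other captures. The labels name the cells adult cochlear SCs, but neutrophil markers such as S100a8 and S100a9 took 16.5% of all reads, from 2.16% to 26.9% per capture, and 197 of 211 cells had at least 3 neutrophil markers at 10 or more reads. SC markers took 0.0594% of reads, from 0.00789% to 1.53% per capture, and 10 cells had at least 3 of them, 8 of which also had the neutrophil markers. Hair cell and endothelial markers reached this limit in 0 of 211 cells, and a limit of 3 counts on a count of 0 allows a share of up to 1.42%. The levels below are thus those of sorted GFP+ cells with mostly neutrophil transcripts.

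The promoters of Fos, Jun, Junb, Atf3, Zfp36 and Dusp1, picked by name, are shown because the early response is set there. The table of RefSeq promoters for GRCm38.p6 matched 8 of the 10 genes, all but Egr1 and Ier2. Each line gives the 150 bases before the RefSeq start of transcription, 5′ to 3′ on the strand of the gene, with found motifs in capitals. For Atf3, Zfp36 and Dusp1 this start lies inside the longer gene of the annotation used for counting. In Fos (chr12:85473740-85473889, plus strand) the capitals are TGACG, the core of the cyclic AMP response element, at both of its places and then TATAAA. In Jun (chr4:95052223-95052372, minus strand) they are TGACATCA, the element of the Jun promoter that ATF and JUN proteins bind. In Junb (chr8:84978749-84978898, minus strand) and Atf3 (chr1:191183334-191183483, minus strand) they are the TGACG core, on the opposite strand in Atf3. In Zfp36 (chr7:28379229-28379378, minus strand) they are a CArG box, the motif of SRF. In Dusp1 (chr17:26508473-26508622, minus strand) they are the whole element TGACGTCA.
Fos: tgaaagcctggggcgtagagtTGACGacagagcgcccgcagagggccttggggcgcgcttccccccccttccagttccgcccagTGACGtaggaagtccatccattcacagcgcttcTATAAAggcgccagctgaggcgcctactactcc
Jun: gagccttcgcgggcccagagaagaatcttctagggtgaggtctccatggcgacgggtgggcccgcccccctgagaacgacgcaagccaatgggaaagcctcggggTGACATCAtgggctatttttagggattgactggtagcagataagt
Junb: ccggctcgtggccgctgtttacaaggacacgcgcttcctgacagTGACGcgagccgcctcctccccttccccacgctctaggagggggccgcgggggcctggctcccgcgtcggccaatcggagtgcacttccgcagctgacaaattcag
Atf3: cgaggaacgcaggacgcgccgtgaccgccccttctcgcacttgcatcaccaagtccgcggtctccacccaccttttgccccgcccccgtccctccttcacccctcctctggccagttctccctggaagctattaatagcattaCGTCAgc
Zfp36: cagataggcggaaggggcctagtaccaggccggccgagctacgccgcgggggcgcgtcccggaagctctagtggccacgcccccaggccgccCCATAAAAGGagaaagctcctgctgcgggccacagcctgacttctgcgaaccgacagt
Dusp1: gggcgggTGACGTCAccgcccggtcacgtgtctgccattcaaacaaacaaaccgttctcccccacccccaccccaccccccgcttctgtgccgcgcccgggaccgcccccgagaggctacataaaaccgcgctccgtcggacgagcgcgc

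The motifs were searched on both strands of the whole window of the table, which reaches past the start. TGACG was in 5 of the 8 promoters, those of Fos, Fosb, Junb, Atf3 and Dusp1, and in 20.8% of all 32851 promoters of the same length. Fos had it 129 and 66 bases before the start, Fosb 60 and Atf3 7. TGACGTCA, which contains TGACG, was in Dusp1 143 bases before the start and in 1.79% of all promoters. TGACATCA was in Jun 45 bases before the start and in 3.62% of all promoters, and the CArG box was in Zfp36 58 bases before the start and in 1.63%. TATAAA was in Fos 33 bases before the start and in Junb at the start, and in 13.6% of all promoters. TGANTCA, the site that AP-1 itself binds, was in none of the 8 promoters and in 7.81% of all. These matches describe the letters of the windows only.

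Transcripts of the early response were found in most cells, and the 10 genes together took 0.856% of all reads on genes. Among the 164 cells with at least 50000 reads, this share ran from 0% to 7.07%, with a median of 0.622% and quartiles of 0.179% and 1.58%. With each of these cells thinned at random to 50000 reads, the median cell had reads on 6 of the 10 genes. Only 2 cells had reads on 0 of them, 20 on 1 to 3, 73 on 4 to 6, 66 on 7 to 9 and 3 on all 10. The 10 cells with the most member reads held 32.9% of such reads, so sums over cells were carried by few cells. Levels are given as CPM, the reads on a gene scaled to a common total of reads on all genes, per cell or for the summed cells of a capture, and shares of cells carry exact Clopper-Pearson 95% intervals, which cover counting error only.

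**Figure D1:**
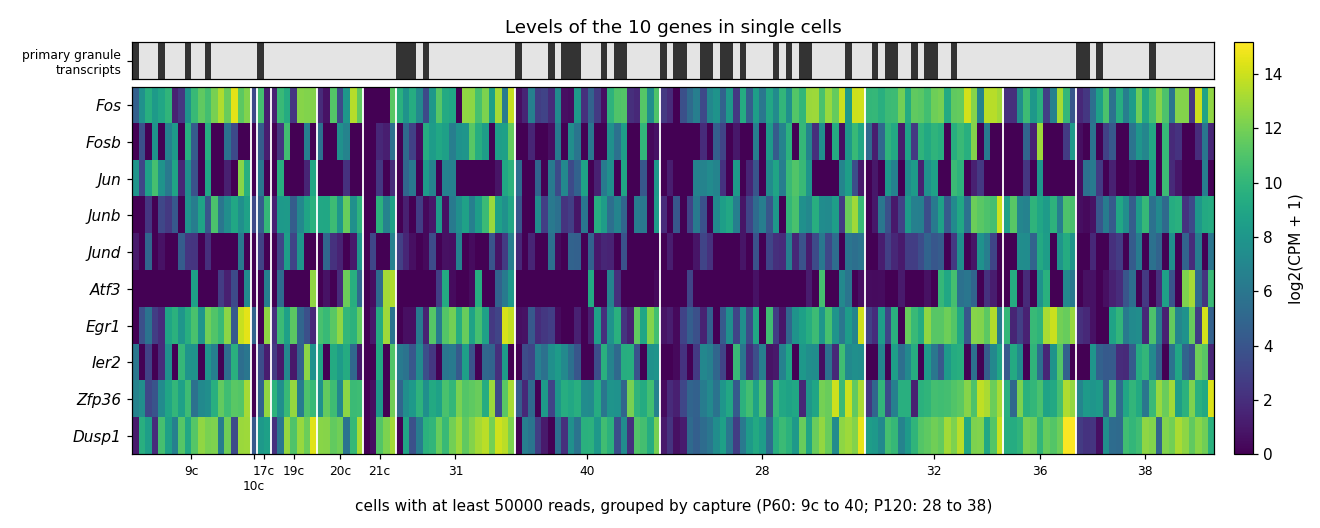
Each column is 1 of the 164 cells with at least 50000 reads, grouped by capture and ordered within it by level, and each row is 1 gene, with colour for log2(CPM + 1). The strip on top marks cells with primary granule transcripts. Zfp36, Dusp1 and Fos were read in nearly every column, while Atf3 and Jun were at 0 in many.

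Fos (ENSMUSG00000021250.13, chr12:85473890-85477273), the inducible partner of AP-1, was read in 193 of 211 cells (91.5%, interval 86.9% to 94.9%). Its level over the 12 captures was lowest at 58.7 CPM in 10c, had a median of 1495 and was highest at 3254 in capture 32. Within cells of at least 50000 reads the quartiles were 23.2 and 2631 CPM, a wide spread between cells. Fosb (ENSMUSG00000003545.3, chr7:19302696-19310051), a relative of Fos that is induced alongside it, was read in 115 cells (54.5%, interval 47.5% to 61.4%), from 0 CPM in 10c through a median of 106.9 to 591 in capture 31.

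The JUN family, whose members pair with FOS or with each other, was lower than Fos. Jun (ENSMUSG00000052684.4, chr4:95049034-95052222) was read in 94 cells (44.5%, interval 37.7% to 51.5%), with captures from 0 in 10c through a median of 86.8 to 275 CPM in 9c. Junb (ENSMUSG00000052837.6, chr8:84974484-84978718) was read in 166 cells (78.7%, interval 72.5% to 84%), from 8.39 through 254 to 784 CPM in capture 36. Jund (ENSMUSG00000071076.6, chr8:70698949-70700616), the family member that is usually expressed without a stimulus, was read in 49.3% of cells (interval 42.4% to 56.2%) and was the lowest of the 10, from 0 through 11.7 to 139 CPM in capture 36.

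Of the other transcription factors, Egr1 (ENSMUSG00000038418.7), a zinc finger factor induced by MAP kinase signalling, was read in 185 cells (87.7%, interval 82.5% to 91.8%), from 58.7 through 1316 to 2705 CPM in capture 36. Ier2 (ENSMUSG00000053560.4, chr8:84661331-84662852), a nuclear protein of the early response, was read in 145 cells (68.7%, interval 62% to 74.9%), from 0 through 203 to 666 CPM in 19c. Atf3 (ENSMUSG00000026628.13, chr1:191170296-191218039), a stress-induced factor of the ATF family, was the most uneven. It was read in 89 cells (42.2%, interval 35.4% to 49.2%) and ran from 15.9 through 111 to 2947 CPM in capture 21c. A single cell of capture 38 held 18.8% of all Atf3 reads and 10 cells held 86.8%, and the median cell of at least 50000 reads had 0 Atf3 reads. For the other members, 10 cells held between 38.2% of reads (Zfp36) and 60.6% (Fosb).

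Both negative regulators were read in most cells. Zfp36 (ENSMUSG00000044786.6, chr7:28376784-28380253), which encodes tristetraprolin, was read in 194 cells (91.9%, interval 87.4% to 95.2%), from 25.2 through 1473 to 2056 CPM in 19c. Dusp1 (ENSMUSG00000024190.6, chr17:26505590-26562128), the MAP kinase phosphatase, was read in 198 cells (93.8%, interval 89.7% to 96.7%), from 100.6 through 2201 to 6122 CPM in 19c. In a share fixed at 50000 reads per cell, Zfp36 was expected in 88.6% and Dusp1 in 86.4% of the 164 cells, against 78.7% for Fos, 38.8% for Jun and 25.1% for Atf3.

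Per kilobase of exon, the order of mean levels over the 12 captures was Dusp1, Fos, Zfp36, Egr1, Atf3, Ier2, Junb, Jun, Fosb and Jund. Dusp1 stood at 808 ± 596 CPM per kb (SD, n = 12), Fos at 704 ± 453, Zfp36 at 364 ± 171 and Egr1 at 338 ± 189. Atf3 followed at 217 ± 397, Ier2 at 154 ± 126 and Junb at 129 ± 106.6, but without capture 21c the Atf3 mean was 112.7. The remaining levels were 33.5 ± 32.2 for Jun, 28.1 ± 33.6 for Fosb and 16.2 ± 23.4 for Jund, the last with a mean of 10.1 without capture 36. Most neighbours in this order could not be separated by capture. Dusp1 was above Fos in 7 of 12 captures and Zfp36 above Egr1 in 5. The wider steps were from Fos to Zfp36, higher in 10 captures, and from Junb to Jun, higher in 11.

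**Figure D2:**
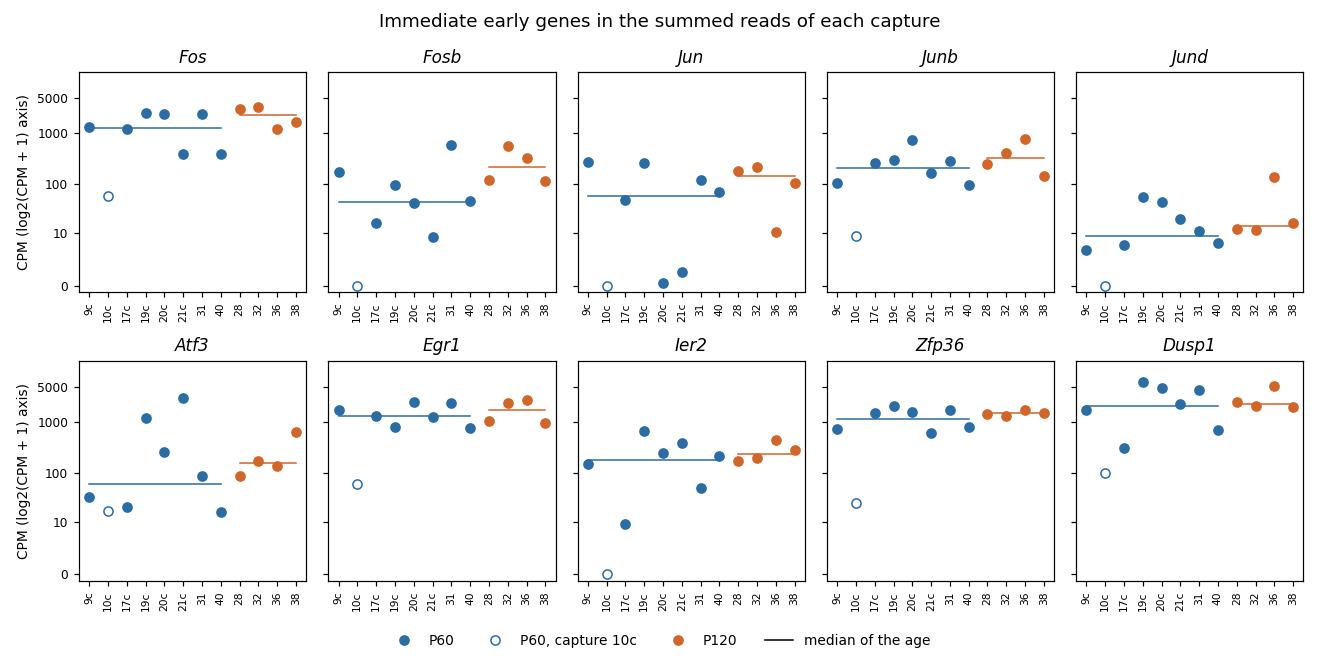
Each panel is 1 gene and each point 1 capture, as CPM of its summed cells on a log2(CPM + 1) axis, in blue for P60 and orange for P120, with a line at the median of each age and an open circle for capture 10c. Most P120 points lie within the range of the P60 points, and capture 10c is the lowest or among the lowest at P60.

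The 10 genes summed to 268 CPM in capture 10c and to between 3115 CPM (capture 40) and 14051 CPM (19c) in the other 11 captures. In between, 17c had 4780, 9c had 6341, 38 had 7482, 21c had 8157 and 28 had 8822, while 32, 31, 20c and 36 ranged from 10669 to 12687. Captures that were high for 1 gene were not high for all. Capture 36 was highest for Junb, Jund and Egr1 but had 10.4 CPM of Jun, and 21c was highest for Atf3 but had 397 CPM of Fos, read in 20.0% of its cells. Capture 20c had 749 CPM of Junb and 0.147 CPM of Jun. The share of spread in thinned reads, on a log scale, that lay between captures was 26.4% for Jund and 20.98% for Fos. It was 18.5% for Dusp1 and 2.77% for Ier2, against a median of 6.603% over all genes ranked, as a description over 142 cells.

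To relate the levels to cell identity, cells were listed by the marker genes they held. The 10 cells with SC markers had a median of 3958 CPM for the 10 genes together and a pooled level of 3339, against 9973 and 11541 in the 148 cells with markers of neutrophils and of no other list. Neutrophil transcripts were also present in 8 of those 10 cells, so SCs and neutrophils cannot be told apart as the source of their early response transcripts. The 18 cells with basophil and mast cell markers, from 4 captures, had a median of 7761 CPM. In them Fosb had a median of 561 CPM and Jun 300 CPM, against 1.38 and 0 CPM in the neutrophil-only cells, and the pooled levels were 498 against 262 CPM for Fosb and 392 against 93.6 CPM for Jun. Neutrophil markers were present in 17 of the 18 cells, and these cells were deeper, at a median of 1769607 against 616217 reads. The listed cells come from different captures in different numbers, so the values are given with no test.

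To ask whether age changed the early response, counts were summed per capture and P120 was compared with P60 by edgeR's quasi-likelihood test over 8346 genes with Benjamini-Hochberg adjustment. None of the 10 genes passed this test, and each had an adjusted p of 1.0. Of all genes tested, 0.0599% were higher and 0.0599% were lower at P120, 5 in each direction. At an unadjusted p under 0.05 there were 443 genes and 0 of the 10 members, and DESeq2 also called 0 members, beside 0.0479% of genes in each direction.

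Fos had 3026, 3254, 1205 and 1652 CPM in the P120 captures 28, 32, 36 and 38, and from 58.7 through a median of 1290 to 2479 CPM in the P60 captures. Means were 2284 ± 1009 (SD, n = 4) and 1343 ± 1004 (n = 8), and the ages overlapped, with a log2 change of 0.67 (SE 1.28). Zfp36 had 1423, 1345, 1762 and 1550 CPM at P120, inside the P60 range of 25.2 to 2056, with means of 1520 ± 182 and 1137 ± 693 and a log2 change of 0.72 (SE 1.29). Dusp1 had 2480, 2080, 5189 and 2014 CPM at P120 and overlapped P60 fully, with means of 2941 ± 1513 and 2545 ± 2255 and a log2 change of 0.59 (SE 1.24). Egr1 behaved alike, with a log2 change of 0.86 (SE 1.27).

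The other members also overlapped between the ages. Jund had the largest positive estimate, 2.02 (SE 1.90), with 11.9, 11.4, 139 and 16 CPM at P120, so that a single capture, 36, carried it. Log2 changes were 1.45 (SE 1.51) for Fosb, 1.22 (SE 1.40) for Junb, 0.72 (SE 1.46) for Ier2 and 0.17 (SE 1.73) for Jun. Atf3 was the only member with a negative estimate, −1.08 (SE 1.49). Over all 10 genes the median log2 change was 0.72, against 0.26 over all genes tested. Without capture 36 the estimates of Junb, Jund, Egr1, Ier2 and Dusp1 changed sign. The P60 captures 9c, 10c, 17c, 19c, 20c and 21c were sequenced in a run of their own, S047, while the other captures shared runs S059iso1 and S059iso2, so age and run cannot be told apart for those 6 captures. With the run group, S047 or S059, as a term in the fit the Atf3 estimate was 2.43, and within the S059 runs alone it was 2.49, and 0 members passed in either.

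Fos and Zfp36 were lower in cells with transcripts of primary granule proteins, which are made early in granulocyte development, though these calls depended on the fit. Of the cells with at least 50000 reads, 41 had 200 CPM or more of Elane, Mpo, Prtn3, Ctsg and Ms4a3 together, genes for 4 granule proteins and a membrane protein of granulocyte precursors, and 123 had less. This class is a range of a score and not a cell type, and 5 of the 164 cells lay between 100 and 400 CPM. In the 6 captures with at least 3 cells of each class, 40 cells with primary granule transcripts were compared with 91 others, summed by capture and class with the capture as a block, by edgeR over 7281 genes. Zfp36 and Fos fell and passed the test. All genes tested had a median log2 change of 0.35, and 0.783% were lower and 0.192% higher in the cells with primary granule transcripts.

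Zfp36 fell from 872 to 465 CPM in 9c, from 2331 to 179 in 31, from 1057 to 297 in 40, from 2123 to 498 in 28, from 1972 to 721 in 32 and from 2067 to 467 in 38. The capture sums of the classes did not overlap. The lowest sum of the other cells, 872 CPM, was above the highest of those with primary granule transcripts, 721 CPM. Single cells did overlap, with Zfp36 quartiles of 219 and 2653 CPM in the 123 other cells and 30.2 and 555 CPM in the 41. How many of all genes had capture sums apart in this way was not counted. The log2 change was −2.80 (SE 0.57, edgeR adjusted p = 0.0315). Fos fell from 1733 to 636 CPM in 9c, from 3096 to 346 in 31, from 4885 to 568 in 28, from 4343 to 2180 in 32 and from 2319 to 443 in 38, and in 40 the values were 364 and 443 CPM. It was lower in 5 of 6 captures, the classes overlapped, and the log2 change was −2.61 (SE 0.56, edgeR adjusted p = 0.0405).

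Dusp1, Egr1 and Junb had negative estimates below −2 on the log2 scale that did not pass. Egr1 was lower in all 6 captures, from 2105 to 1176 CPM in 9c, 3253 to 0.896 in 31, 1128 to 96 in 40, 1803 to 103.7 in 28, 3128 to 1699 in 32 and 1226 to 424 in 38, and its log2 change was −3.66 (SE 1.12, edgeR adjusted p = 0.147). Junb, with means of 321 ± 249 and 58.9 ± 53.2 CPM (SD, n = 6), was also lower in all 6 captures, with −3.52 (SE 1.25, edgeR adjusted p = 0.213). Egr1, Zfp36 and Junb were the 3 members lower in every capture, a pattern that 3.83% of tested genes showed. Dusp1 was lower in 4 of 6 captures, with 1825 CPM against 1741 in 9c and 2192 against 1932 in 32, and a log2 change of −2.42 (SE 0.65, edgeR adjusted p = 0.0903).

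Atf3 had 0, 0, 0.364, 0.687, 245 and 0.217 CPM in the cells with primary granule transcripts of captures 9c, 31, 40, 28, 32 and 38, against 50.3, 116, 24, 151, 104.3 and 972 CPM in the others. It was near 0 in 5 of 6 captures and higher in capture 32, and its edgeR adjusted p was 0.0584. The level in capture 32 came almost wholly from a single cell with primary granule transcripts, at 1649 CPM. That cell held 70.3% of the 5840 Atf3 reads of the capture, and all its cells of this class held 4106 reads. Jun went another way in the summed counts. It was higher in the cells with primary granule transcripts in 5 of 6 captures, with means of 203 ± 122 against 124 ± 76.8 CPM, and at a fixed 50000 reads it was expected in 73.1% against 33.8% of cells. Its log2 change was −0.21 (SE 0.98, edgeR adjusted p = 0.946) after TMM scaling with the capture as a block, so its direction differed between the summed CPM and the fit. Estimates for Fosb (−0.42), Jund (−1.39) and Ier2 (−1.47) did not pass either. In the summed CPM Fosb was higher in the cells with primary granule transcripts in 4 of 6 captures, with means of 247 ± 173 against 275 ± 304 CPM.

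**Figure D3:**
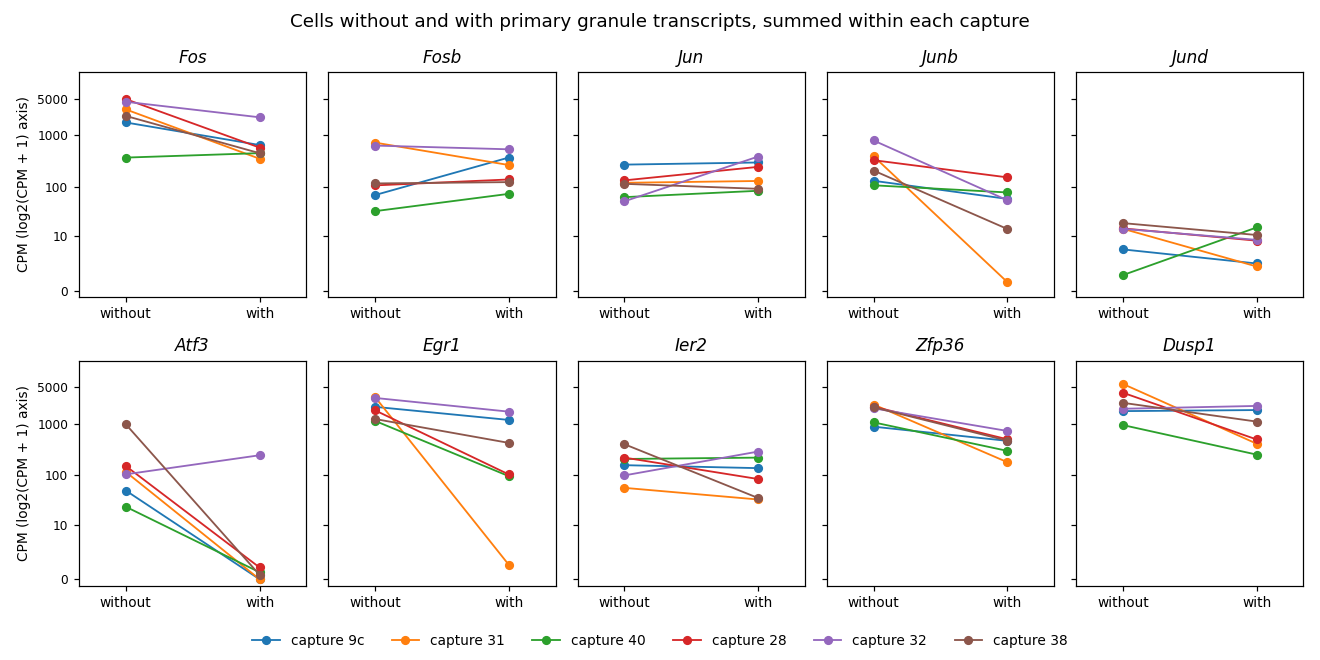
Each panel is 1 gene, and each line joins the summed cells without (left) and with (right) primary granule transcripts of 1 of 6 captures, as CPM on a log2(CPM + 1) axis. All 6 lines fall for Zfp36, Egr1 and Junb, 5 of 6 fall for Fos, and 5 of 6 rise for Jun.

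All 10 log2 changes of the fit were negative, with a median of −2.52, though Jun and Fosb were higher in the summed CPM of most captures. The 10 genes together were lower in all 6 captures, at 3525 ± 2668 against 10607 ± 4491 CPM (SD, n = 6). The number of members past the test depended on the fit. DESeq2 called 6 of the 10 lower, beside 13.8% of all genes lower and 20.5% higher, a split of directions opposite to that of edgeR. With every cell thinned to 50000 reads edgeR called 6 of the 9 members it tested, beside 3.31% of 3901 genes. With a class limit of 50 or 1000 CPM it called 0 members. With capture and sequencing run together as the block, an alternative added after the data were seen, edgeR called 0 of 9 members and 7 of 6175 genes. It gave −2.23 for Zfp36 (edgeR adjusted p = 0.246) and −1.04 for Fos (edgeR adjusted p = 0.664). This fit used captures and runs with at least 2 cells of each class, so its cells and genes also differed from the main fit. Leaving out 1 capture at a time, Fos passed without 32 or without 40 and Zfp36 without 32, and neither passed otherwise, while Atf3 passed without 32 (adjusted p = 0.00870). Over all alternatives the adjusted p ran from 7.55e-08 to 0.246 for Zfp36 and from 2.64e-06 to 0.664 for Fos. Cells with primary granule transcripts also held more genes, a median of 2477 against 879 at 50000 reads, and made up 43.1% of cells in S059iso1, 16.7% in S059iso2 and 12.5% in S047. The 123 cells without primary granule transcripts were themselves uneven. Split after the values were seen by a read on Il1b or Cxcr2, genes of mature neutrophils, in thinned cells, the 20 cells without such a read, from 6 captures, had a pooled level of 3807 CPM for the 10 genes and the others 13493, against 3598 in all 41 cells with primary granule transcripts. Fos stood at 1062, 3112 and 904 CPM and Zfp36 at 1069, 2026 and 451 CPM in these groups, given with no test. Il1b and Cxcr2 themselves varied with the members in these data, at a median Spearman's rho of 0.31 and 0.26. The split was therefore not independent of member levels, and its part in the gap was not tested. The part of gene number and run in the result was not tested apart from these fits.

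The 6 captures 28, 31, 32, 36, 38 and 40 had cells in both S059 runs, 68 cells in S059iso1 and 88 in S059iso2, which allowed the runs to be compared within captures. Levels of all 10 genes together were higher in S059iso2 in each of the 6 captures, at 13665 ± 6131 against 5479 ± 3283 CPM (SD, n = 6). By edgeR with the capture as a block over 5766 genes, 0 members passed, beside 0% of genes higher and 0.052% lower in S059iso2, and 3 members had an unadjusted p under 0.05 among 1038 genes. DESeq2 called Zfp36, Dusp1, Fos and Junb higher, beside 4.44% of genes higher and 35.2% lower. The median log2 change of all genes tested was −1.98, while the 10 members had a median of 1.85, all with positive estimates.

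Zfp36 went from 904 to 2581 CPM in 31, from 502 to 1575 in 40, from 127 to 1635 in 28, from 653 to 2846 in 32, from 1620 to 2260 in 36 and from 1166 to 2282 in 38. Only the S059iso1 value of capture 36 lay above the lowest S059iso2 value, and the log2 change was 2.36 (SE 1.06, edgeR adjusted p = 0.209). Dusp1 went from 1188 to 7438 CPM in 31, from 500 to 1238 in 40, from 950 to 2731 in 28, from 1748 to 2802 in 32, from 3647 to 10595 in 36 and from 1416 to 3154 in 38, with overlap between the runs and a log2 change of 2.06 (SE 0.84, edgeR adjusted p = 0.162). These were the 2 members higher in S059iso2 in every capture, which 1.21% of tested genes were.

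Fos was higher in 5 of 6 captures, with means of 2883 ± 2203 against 981 ± 685 CPM and a log2 change of 2.11 (SE 1.07, edgeR adjusted p = 0.274). Fosb, Jun, Junb, Atf3, Egr1 and Ier2 were higher in 4 of 6 captures and Jund in 3, and their adjusted p-values ran from 0.387 for Junb to 0.903 for Ier2. At a fixed 50000 reads Jun was expected in 51.7% of S059iso1 and 27.4% of S059iso2 cells and Ier2 in 68.3% and 54.1%, while Zfp36 was expected in 87.5% and 92.1%. The runs also differed in depth, at a median of 1644757 against 612573 reads per cell, and in cells with primary granule transcripts as given above. Elane and Mpo were among the 3 genes called lower in S059iso2. In the cells without primary granule transcripts alone the median log2 change of the 10 genes was 1.68, with 0 genes called. The median over all 3465 genes tested there was −0.47, nearer to that of the members than in the fit of all cells.

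**Figure D4:**
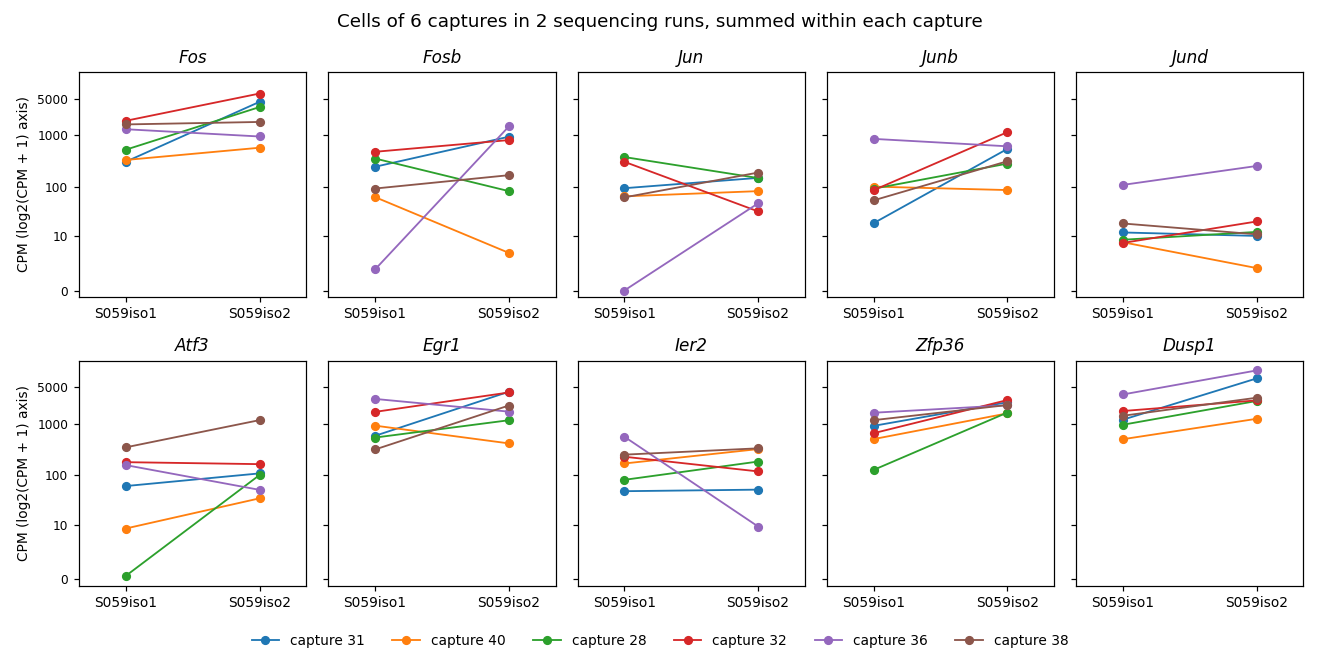
Each panel is 1 gene, and each line joins the summed cells of 1 of 6 captures in run S059iso1 (left) and run S059iso2 (right), as CPM on a log2(CPM + 1) axis. All 6 lines rise for Zfp36 and Dusp1, and lines go both ways for the other genes.

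To see whether the genes rose in the same cells, Spearman's rho was computed over 142 cells of 7 captures, with every cell thinned to 50000 reads and values ranked within the capture. Cells share captures and runs, the genes of a cell share its library and depth, and the values are descriptions. Over the 45 pairs of members rho had a median of 0.187 and ran from −0.106 to 0.478, while all pairs of genes ranked had a median of 0.0841. A rho over 0.3 was found in 12 of 45 pairs, 26.7%, against 9.44% of all pairs of genes. With ranks taken within capture and run, over 129 cells, the median was 0.182 with 12 pairs over 0.3, against 5.14% of all pairs. In the cells without primary granule transcripts it was 0.143 with 8 pairs over 0.3, against 4.75% of all pairs.

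Zfp36 and Dusp1 had the highest medians with the other members, at 0.33 and 0.30. Dusp1 had a rho of 0.48 with Egr1, 0.47 with Junb, 0.43 with Fos and 0.41 with Zfp36, and Jund with Zfp36 also had 0.41. Fos and Dusp1 were both read in 75.4% of the 142 thinned cells. Jun stood apart from this group, at −0.11 with Zfp36 and −0.07 with Fos, and its highest value was 0.30 with Fosb. Ier2 had a median of 0.05 with the other members. Medians within single captures ran from 0.0419 in capture 40 to 0.359 in capture 28. Junb fell most with the depth of the cell before thinning, at a rho of −0.41, and the normalized GFP intensity of the captured cell had a rho of 0.28 with Zfp36 and of −0.26 with Jun.

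**Figure D5:**
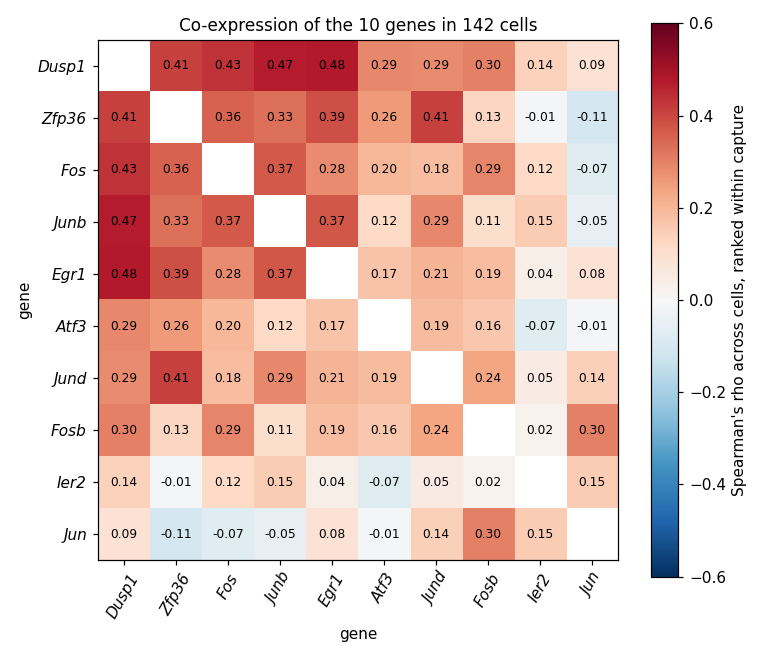
Each square is 1 pair of the 10 genes, with colour for Spearman's rho over 142 thinned cells ranked within 7 captures. Dusp1 with Egr1 is the highest at 0.48, and the row of Jun lies between −0.11 and 0.15 except with Fosb.

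Of 2166 genes with a read in at least 20% of thinned cells, those most like the members by their median rho were Ccl6 at 0.36, Btg1 at 0.34 and Il1b at 0.31, followed by Sirpb1b, Gcnt1, Pim1, Clec7a, Sirpb1c, Nfkbiz and Il1r2, the last at 0.27. Ccl6 and Il1b encode a chemokine and a cytokine of myeloid cells, and Btg1 an antiproliferative protein. The ranking took cells with and without primary granule transcripts together. Ccl6, Btg1 and Il1b were also lower in the cells with them, with log2 changes of −4.67, −4.23 and −5.06. The part of this class difference in their likeness was not tested. Of the other immediate early genes ranked, 4 of 15, or 26.7%, were in the first 50, a place that 2.31% of all ranked genes had, among them Btg2 at 0.24 and Ier5 at 0.23. At the other end were Lta4h at −0.30 and mt-Cytb at −0.29.

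Other lists of the pathway were read from the same fits. Among other immediate early genes, the highest levels were 2805 CPM for Btg2, 1187 for Nfkbia, 1079 for Klf6 and 809 for Mcl1. In cells with primary granule transcripts 2 of 25 fell and 0 rose, beside 0.783% and 0.192% of all genes tested, Trib1, a pseudokinase, with a log2 change of −3.98 (edgeR adjusted p = 0.0193) and Mcl1, a survival factor, with −3.17 (edgeR adjusted p = 0.0299), and 24 of 25 estimates were negative with a median of −3.17. With capture and run as the block neither passed, at adjusted p = 0.737 for Trib1 and 0.478 for Mcl1. Between the runs 0 of 26 passed, and the median was 1.80. Of the heat shock genes, which dissociation also raises, 0 of 8 passed in both comparisons, with medians of 1.47 by class and −2.08 by run against 0.35 and −1.98 over all genes. Their highest levels were 1227 CPM for Dnaja1, 917 for Hspa8, 816 for Hspa5 and 737 for Hsp90ab1. At the low end of this list, Hspb1 was read in 1 cell, and Hspa1a and Hspa1b in 14 cells each, at 2.2 and 12.3 CPM. Hsph1 was read in 20 cells, at 14.9 CPM. AP-1 and ATF partners such as Atf4 (198 CPM), Atf1 (184), Cebpb (174) and Mafg (80.9) had 0 of 11 past the test by class with a median of −0.93. Upstream kinases and factors, led by Mapk3 (131 CPM), Mapk14 (123) and Mapkapk2 (71.1), had 0 of 9 with a median of 0.48. By age 0 of 28 other immediate early genes, 0 of 9 heat shock genes, 0 of 12 partners and 0 of 11 upstream genes passed.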

How the data were processed

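Raw counts of reads per gene were deposited for 211 cells, each a library of its own. The authors de-multiplexed the reads, aligned and counted them with STAR (GRCm38, mm10, annotation vM11) and removed endothelial cells and outliers. A second table, also deposited, gives the age, capture, sequencing run and uniquely mapped read count of each cell, and a GFP intensity score that the authors scaled from images in a way not given in the sources used here.

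Symbols, exon lengths and positions came from GENCODE vM21, with 48349 of 48709 identifiers matched. Spike-in sequences were left out. The age of a cell came from the labels and its capture and run from the deposited annotation. Captures were the replicates. Where a capture pooled mice, p-values measure the spread between pools. No doublet caller was run.

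Summed counts of each capture, split by class or run where these were compared, were tested over all genes in R 4.3.3 with edgeR 4.0.16, by its quasi-likelihood test with TMM factors and filterByExpr and with p-values adjusted by Benjamini-Hochberg (threshold 0.05). DESeq2 1.42.0 was the alternative tool, beside other filters, thinning to 50000 reads, class limits and left-out captures. Cell depth ranged from 41 to 5361476 reads, so shares at a fixed depth used the 164 cells with at least 50000 reads. Scripts ran in Python 3.11.15 with numpy 2.4.6, pandas 2.3.3, scipy 1.17.1 and matplotlib 3.10.9, and were tested on simulated data.

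The members and the gene lists were chosen with earlier results of these data known. Named are the 10 members, the genes of other pathway lists that passed a test or had the 4 highest levels, the 10 genes most like the members, and list sums of cell type markers. One gene of a pathway list that this rule takes is not reported here. Of other genes, Elane, Mpo and Cxcr2, the genes at the low end of the likeness order and Btg2 and Ier5 as examples from it were named after their values were seen. So were the heat shock genes at the low end of their list.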

Additional observations from a re-analysis of the deposited data

Results flagged for a closer look

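Dixon's test at the 95% level was applied to the levels of each member and of their sum. It covered the captures of each age, run and class. Of 66 groups tested, 14 had a capture that stood far from the others. The groups share captures and reads, and the sums were carried by few cells, so this count was not set against chance. Capture 36 accounted for 5 of the 14. At P120 it had 139 CPM of Jund, with the next capture at 16, and 5189 CPM of Dusp1, with the next at 2480. In run S059iso1 it had 836 CPM of Junb (next 99.6) and 107.6 CPM of Jund (next 18.6), and in S059iso2 it had 250.4 CPM of Jund (next 20.4). Jund in capture 36 was thus far from the others in both runs.

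Atf3 accounted for another 5. It had 630.2 CPM in capture 38 at P120 (next 175) and 2947 CPM in capture 21c at P60 (next 1213). Capture 38 also stood apart in run S059iso2, with 1168 CPM (next 165), and among cells without primary granule transcripts, with 972 CPM (next 151). Among cells with primary granule transcripts, capture 32 had 245 CPM of Atf3, with the next at 0.687, and 2180 CPM of Fos, with the next at 636. A single cell carried almost all of this Atf3 level.

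At P60, capture 31 had 591 CPM of Fosb (next 174) and capture 20c had 749 CPM of Junb (next 297). In cells without primary granule transcripts, capture 9c had 266 CPM of Jun (next 132).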

How the results depend on the processing

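No paired analysis of age was possible because the replicate numbers only follow accession order and cells are not replicates. The class and run comparisons carried the capture as a block by design. The cause of the changes below was not tested.

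By age, 10 genes were called. There were 22 without a filter, 0 with run as a covariate, 2 in the S059 captures alone, 0 with thinned cells, 0 in cells without primary granule transcripts (added after the data were seen), and 1 to 16 with 1 capture left out, 1 without 10c and 16 without 21c. No member was called in any of these. The log2 change of Fosb turned to −0.010 with run as a covariate and to −0.015 in the S059 captures, and that of Atf3 to 2.43 and 2.49. That of Jun turned to −0.0079 by DESeq2 and to −0.21 in cells without primary granule transcripts. With 1 capture left out, it ran from −0.12 to 0.85 for Jun, −0.25 to 1.80 for Junb, −0.89 to 2.65 for Jund, −0.13 to 1.17 for Egr1, −0.30 to 1.44 for Ier2 and −0.63 to 1.04 for Dusp1.

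By class, 71 genes were called, 19.7% of them higher. There were 2497 by DESeq2, 59.8% of them higher, 207 without a filter, 158 with thinned cells, 45 at a limit of 1000 CPM, 7 with capture and run as the block (added), and 27 to 48 with 1 capture left out. Fosb turned to 0.37 with capture and run as the block and to 0.24 at 1000 CPM, and ran from −0.80 to 0.060 with 1 capture left out. Jun turned to 0.74 with capture and run as the block and to 0.14 at 50 CPM, and ran from −0.64 to 0.13.

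By run, 3 genes were called. There were 2288 by DESeq2, 0 in cells without primary granule transcripts (added), and 0 to 23 with 1 capture left out, 23 without 36. Ier2 turned to −0.0019 by DESeq2 and to −0.016 with thinned cells (added).

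The summed level of the members and the median rho of their pairs stayed within their spread under each alternative run for them. Single pairs changed sign, such as Ier2 with Zfp36, from −0.014 to 0.075 without thinning, and Junb with Atf3, from 0.12 to −0.035 in cells without primary granule transcripts. With cells weighted equally the level of Junb was 564 CPM. Depth limits the shares of cells at 0 reads, above all in 10c, where 1 of 13 cells reached 50000 reads.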

Other observations

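The study's list of primers holds an Atf3 pair for droplet digital PCR, and it was set beside the pair for single-cell qPCR because Atf3 is the most uneven member. The droplet digital PCR pair listed for Atf3 has the sequences given here, which are printed because they match another gene.
Atf3 forward: tgcatctcagcctggttcaa
Atf3 reverse: atgagtcctgagactcctcac
Among 141767 transcripts of GENCODE vM21, the forward primer matched 8 transcripts of Atf1 and the reverse primer 6 of Atf1 and its pseudogene Atf1-ps, and neither matched Atf3. The pair is identical to the one listed for Atf1 in the single-cell qPCR list. The Atf3 pair in that list is given for comparison.
Atf3 qPCR forward: gctgccaagtgtcgaaacaa
Atf3 qPCR reverse: agctcagcattcacactctcc
Each of these primers matched 3 transcripts of Atf3. Of 10 genes listed for both assays, 9 had the same pair in both. No PCR values were analysed here.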
